A study of Mus musculus with 6 samples.

Results

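The genes described here encode the heterogeneous nuclear ribonucleoproteins (hnRNPs) and the serine/arginine-rich (SR) splicing factors. They were chosen by name: symbols that begin with Hnrnp, and symbols that begin with Srsf and a digit, without those containing "-ps", a pseudogene suffix. This gave 31 genes of the 55367 symbols in the table, 20 hnRNP genes and 11 SR genes, and 3 pseudogene symbols were dropped. The libraries are labelled as neurons of the mouse hippocampal dentate gyrus that carried the red protein tdTomato. All mice had the genotype TRAP2;Ai9, in which a tamoxifen-inducible Cre recombinase made from the activity gene Fos switches on a Cre-dependent tdTomato gene (Fos-iCreERT2; Rosa26-LSL-tdTomato). All had gone through learned helplessness (LH), a stress procedure after which animals stop escaping, and cells active around it had been labelled and were isolated by fluorescence-activated sorting. The LH+ NR group (NR) had no running and the LH+ Run group (Run) had 28 days of voluntary running, with 3 Smart-seq2 libraries each, all labelled as 1 batch. The labels call the assay single-cell, without saying whether a library holds 1 cell or a pool. Age, and how many animals and cells stand behind a library, are not given in the sources used here, so p-values reflect the spread among these 6 libraries alone, and that spread may be technical. Labelling marks whichever cells used the Fos promoter while tamoxifen was present, and is not limited to 1 cell type by its design.

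Messenger RNA precursors are bound by hnRNP and SR proteins as soon as they are made. SR proteins carry RNA recognition motifs and a domain rich in arginine and serine, and they mostly favour the use of an exon by recruiting the spliceosome. Many hnRNPs oppose them, or act from introns, and several also carry RNA out of the nucleus and along dendrites or control its decay. The balance of both families sets which exons neurons include. Many of these genes limit their own output through exons or introns that send the transcript to nonsense-mediated decay. In the GENCODE M21 annotation, 9 of 11 SR genes (81.8%) and 10 of 20 hnRNP genes (50%) had at least 1 transcript of the nonsense-mediated decay class, against 28.1% of 5073 protein-coding genes tested here. The families also had more annotated transcripts per gene, with a median of 7 for SR and 8 for hnRNP genes against 5. The shares were not adjusted for that. A retained-intron transcript was annotated for 72.7% of SR genes and 70% of hnRNP genes, against 62.3%. The values below are 1 number per gene, so they do not separate such transcripts from coding ones.

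The regions just before the start sites were compared, as a feature that the choice by name did not use. RefSeq promoter windows (GRCm38.p6) were at hand for 29 of the 31 genes, in 41 windows, some of which overlap within a gene. Hnrnpll and Hnrnpul2 were not matched. In the 250 bases before the start, the median G and C content was 68.0% over the members' windows, 60.0% over 5507 windows of tested genes and 52.4% over all 32851 windows. The GC box GGGCGG, searched on both strands, was present in 80.5% of member windows, 56.9% of those of tested genes and 32.7% of all. By family it was in 74.1% of hnRNP windows and 92.9% of SR windows. The CCAAT box, with the letters CCAAT, was in 63.0% of 27 hnRNP windows and 21.4% of 14 SR windows, against 36.3% of those of tested genes and 33.8% of all. The letters CCGGAAG, bound by ETS factors, were in 11.1% of hnRNP windows and 42.9% of SR windows, against 13.3% of those of tested genes and 6.91% of all. The TATA box TATAAA was in 7.32% of member windows, close to the 6.77% of tested genes, and in 12.4% of all. The palindromic motif of the factor NRF1 was in 2.44% of member windows, 1.74% of those of tested genes and 0.782% of all. CCGGAAG may overlap a GC box. These shares count windows rather than genes, describe the letters in a window and carry no test. Genes with several windows, such as Hnrnph1 and Hnrnpf, weigh more, and a motif shared by overlapping windows is counted more than once. The 150 bases before the start are shown 5′ to 3′ for the most abundant members whose stretch holds no annotated exon. They show how CCAAT, GC and ETS letters lie in single windows. Capitals mark any of the motifs searched, on either strand, and adjoining matches run together.

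Hnrnpa2b1, chr6:51469895-51470044, minus strand: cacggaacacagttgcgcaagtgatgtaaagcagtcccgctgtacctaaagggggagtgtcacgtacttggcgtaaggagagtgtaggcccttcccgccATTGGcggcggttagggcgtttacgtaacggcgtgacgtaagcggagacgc

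Srsf5, chr12:80945349-80945498, plus strand: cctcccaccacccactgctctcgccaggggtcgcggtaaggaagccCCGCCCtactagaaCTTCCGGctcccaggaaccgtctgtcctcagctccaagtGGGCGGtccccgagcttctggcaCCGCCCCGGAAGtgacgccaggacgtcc

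Hnrnpa1, chr15:103240247-103240396, plus strand: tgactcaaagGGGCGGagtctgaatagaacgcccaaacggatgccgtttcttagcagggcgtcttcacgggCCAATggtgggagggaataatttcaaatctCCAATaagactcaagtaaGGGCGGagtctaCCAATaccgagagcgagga

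The Hnrnpa2b1 stretch held 1 CCAAT box and no GC box, that of Srsf5 held 3 GC boxes and 2 ETS matches, and that of Hnrnpa1 held 3 CCAAT boxes and 2 GC boxes. No protein-DNA binding was measured in this study.

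Levels are FPKM, fragments scaled by transcript length and library size, so genes can be set side by side per length. Of the 31 genes, 13 (41.9%) reached FPKM 1 in all 6 libraries, against 3.16% of all symbols. A further 16 reached it in 3 to 5 libraries, Srsf9 in 2 and Srsf12 in none. The 29 genes that reached FPKM 1 in at least 3 libraries entered the test, 20 hnRNP and 9 SR genes. The members that passed were thus more often found in every library (44.8%) than tested genes as a whole (28.4% of 6155). Even so, 36 of the 186 member values were below 1, and 22 of these were listed at 0. Such a 0 may be an estimate that failed, so these genes are described as listed at 0. Libraries are listed below in the order of replicates 1, 2 and 3. The number of members at FPKM 1 or more was 23, 27 and 28 without running and 23, 27 and 22 with running, and these ranges overlapped. SR genes at FPKM 1 or more numbered 8, 10 and 9 without running and 7, 8 and 6 with running, and hnRNP genes 15, 17 and 19 without running and 16, 19 and 16 with running. The SR ranges met at 8. Over all symbols the counts were 5426, 7355 and 5980 without running and 6291, 6136 and 5534 with running. Run replicate 3 held 8 of the 22 member values listed at 0.

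**Figure D1:**
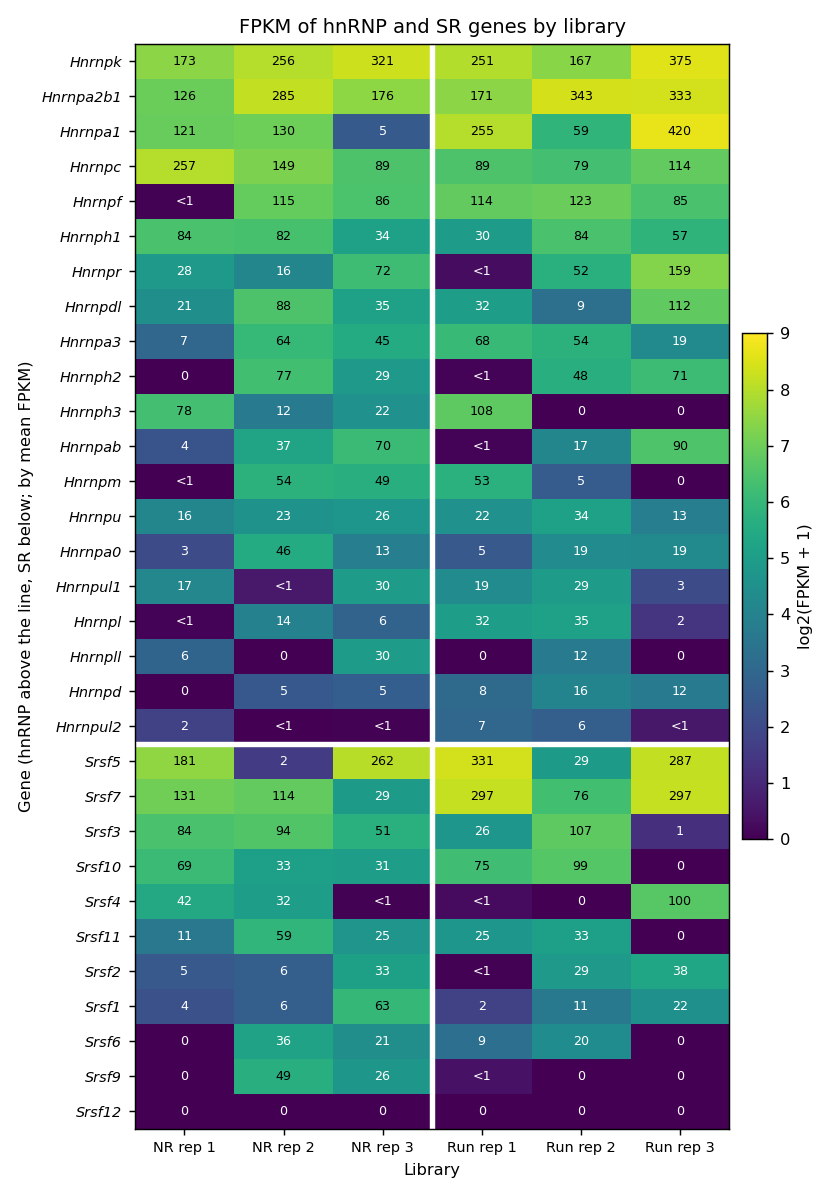
FPKM of the 20 hnRNP genes (above the white line) and 11 SR genes (below) in each of the 6 libraries, rows ordered by mean FPKM within each family. Colour is log2(FPKM + 1) and the printed number is the rounded FPKM, with <1 for values between 0 and 1. Hnrnpk and Hnrnpa2b1 were high in every library, while 18 of the 31 rows hold at least 1 value below 1.

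Over the whole series, the FPKM summed over all symbols lay between 473786 and 492021 per library, and 5426 to 7355 genes reached FPKM 1. Markers of neurons and of several other cell types were present, although the libraries are labelled as neurons. The summed FPKM of 8 astrocyte markers was 2468 to 5257 per library, of which Aldoc alone gave 1028 to 2655. That of 7 general neuron markers was 273 to 1021. It was 153 to 769 for 6 immature granule neuron markers and 0.285 to 159.9 for 6 dentate granule neuron markers. Of the dentate granule neuron markers none reached FPKM 1 in all 6 libraries, and Dsp and Trpc6 stayed below 1 in every library. The astrocyte sum was above the general neuron sum in all 6 libraries. In NR replicate 1 the neuron markers Rbfox3 and Stmn2 were listed at 0, and Syt1 and Syp were below 1. Snap25 (172 FPKM), Tubb3 (51.5) and Map2 (48.9) were present in that library. Oligodendrocyte (75.1 to 1144), microglial (55.0 to 834), endothelial (774 to 1982) and mural (236 to 1438) marker sums also varied within both groups. Among the microglial markers C1qc reached FPKM 1 in all 6 libraries, and Csf1r and P2ry12 in 1 each. Splicing factors are made by all of these cells, and which cells gave the values below was not tested. Fewer cells of a type and less RNA per cell cannot be told apart in such libraries.

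The comparison of Run with NR asked how RNA of the sorted tdTomato-positive cells differed after running. No hnRNP or SR gene passed the test. By limma on log2(FPKM + 1), with p-values adjusted by Benjamini-Hochberg across the 6155 tested genes, 0 of 29 members reached an adjusted p under 0.05, against 0% of all tested genes. The adjusted p of the members lay between 0.978 and 0.999. At an unadjusted p under 0.05 there were 0 members, where 4.94% of all tested genes (304) passed, 2.45% higher and 2.49% lower with running, and the smallest unadjusted p of a member was 0.121, for Hnrnpul2. Each difference is the Run mean less the NR mean of log2(FPKM + 1), a scale on which the change of a low gene is understated. Of the 29 members 13 had a positive and 16 a negative difference, with a median of -0.09 beside -0.03 over all tested genes, of which 48.9% were positive. A difference of at least 1 in size was found in 14 members, and in 48.7% of all tested genes. The SE had a median of 1.61 over the members and 1.51 over all tested genes, so differences of this size lay within the spread of the libraries for most members. In 4 of 29 members (13.8%) was the difference larger than the residual SD of the gene's own libraries, beside 24.9% of tested genes. The values of both groups were separate in 1 member, Hnrnpd, where 8.95% of tested genes had groups that do not overlap, 4.76% with Run above and 4.19% with Run below.

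**Figure D2:**
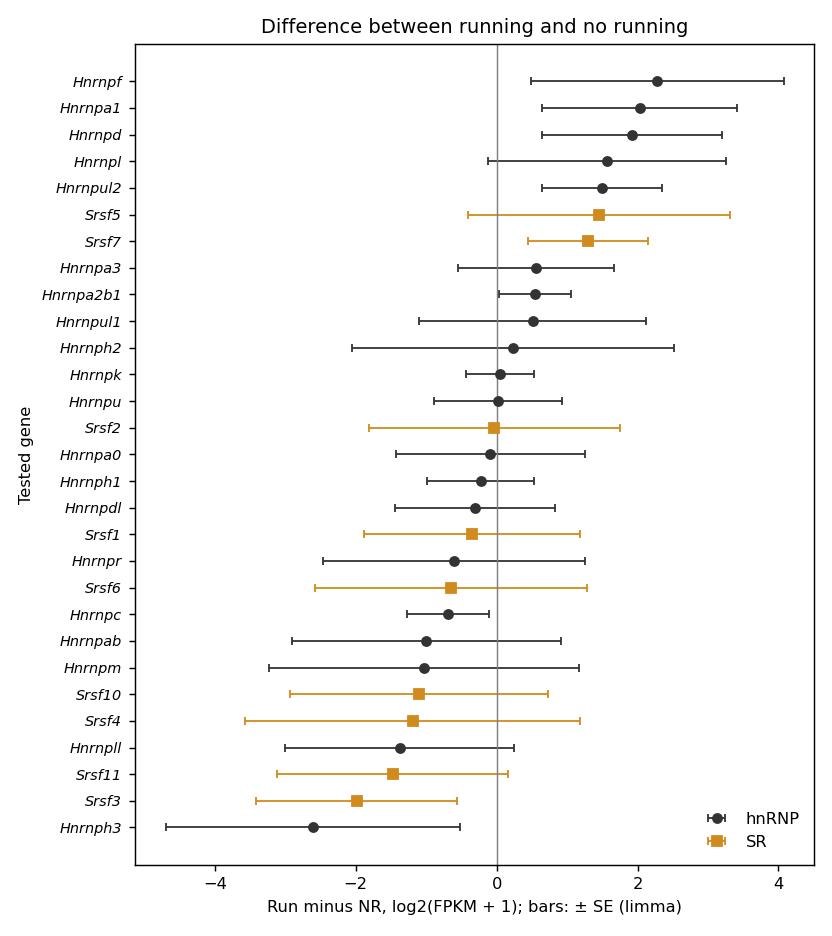
Run minus NR difference on the log2(FPKM + 1) scale for the 29 tested members, with bars of ± SE from limma; black circles are hnRNP genes and orange squares SR genes. The differences ran from -2.61 (Hnrnph3) to 2.28 (Hnrnpf), and none passed the adjusted threshold.

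The families lay differently around 0, without a test of that contrast. Of 20 tested hnRNP genes 11 had a positive difference (median 0.03), and of 9 tested SR genes 2, Srsf5 and Srsf7 (median -0.65). The SR count was 3 of 9 after quantile normalization and 2 of 9 after scaling every library to the same sum. Without Run replicate 3, in which Srsf10, Srsf11 and Srsf6 were listed at 0, it was 5 of 9 with a median of 0.15. It was 4 of 9 without NR replicate 3 (median -0.03) and 4 of 9 without Run replicate 1 (median -0.18). Leaving out NR replicate 1, NR replicate 2 or Run replicate 2 gave 2 of 9. Among the 4 SR genes with FPKM of at least 1 in every library it was 2 of 4, with a median of 0.47. Without NR replicate 1, 7 of 20 hnRNP genes were positive, with a median of -0.25. Without Run replicate 1 it was 14 of 20, with a median of 0.37, and over the other 4 such fits it was 9 to 12 of 20.

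Summed levels, which weight the abundant members, gave ratios above 1 for both families, although the median SR difference was below 0. Single genes held much of each rise. The mean of Hnrnpa1 was 85.1 FPKM without running and 244 with running, and that of Srsf7 was 91.4 and 223. Other members went down, among them Hnrnpc (165 and 93.8) and Srsf3 (76.6 and 44.7). The 20 hnRNP genes summed to 943, 1454 and 1145 FPKM without running and 1263, 1190 and 1883 with running, with means of 1180 ± 257 and 1446 ± 381 (SD, n = 3 each), a ratio of 1.22. The 11 SR genes summed to 526, 429 and 542 without running and 765, 404 and 746 with running, with means of 499 ± 60.8 and 638 ± 203 (SD, n = 3 each), a ratio of 1.28. In both families the groups overlapped. The differences of the means were smaller than the SD of the Run libraries and larger than that of the NR libraries. All 31 genes together held 0.302% to 0.534% of the FPKM of a library. The sum of SR genes divided by that of hnRNP genes was 0.442 ± 0.134 without running and 0.447 ± 0.140 with running (SD, n = 3 each).

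**Figure D3:**
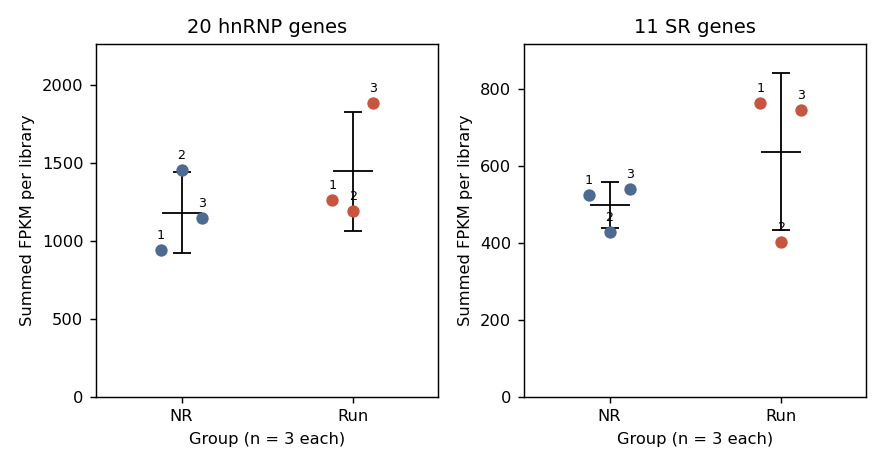
Summed FPKM of the 20 hnRNP genes (left) and the 11 SR genes (right) in each library (points, numbered by replicate), with the group mean and SD (n = 3 each). Run replicates 1 and 3 had the highest SR sums, at 765 and 746, and Run replicate 2 the lowest, at 404.

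Among the A/B and D hnRNPs, which bear paired RNA recognition motifs, Hnrnpa2b1 (chromosome 6, 51460932 to 51469894) was the most abundant. It encodes the protein that binds transport signals of dendritic RNAs. Its level was 126, 285 and 176 FPKM without running and 171, 343 and 333 with running, with means of 196 ± 81.4 and 282 ± 96.3 (SD, n = 3 each). The groups overlapped, Run replicate 1 lying below NR replicates 2 and 3, and the log2 difference was 0.54 ± 0.51 (SE; limma unadjusted p = 0.325, adjusted p = 0.978). Hnrnpa1 (chromosome 15, 103240432 to 103246692), a shuttling protein that represses exons, had 120.5, 129.8 and 4.91 FPKM without running and 255, 58.7 and 420.0 with running. Run replicates 1 and 3 were the highest and NR replicate 3 was far below all others, and the group means were 85.1 ± 69.6 and 244 ± 181 (SD, n = 3 each). The log2 difference was 2.03 ± 1.38 (SE; limma adjusted p = 0.978), and 0.56 without NR replicate 3.

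The other members of this class were less abundant. Hnrnpa3, a close relative of Hnrnpa1 and Hnrnpa2b1, had 6.81, 64.0 and 45.3 FPKM without running and 68.1, 54.2 and 18.6 with running. Hnrnpa0, whose protein binds AU-rich elements, had 3.14, 45.8 and 13.4 without running and 4.76, 19.2 and 18.9 with running. NR replicate 1 had the lowest value of both genes. Hnrnpab had 4.06, 36.9 and 70.0 without running and 0.0729, 16.5 and 89.9 with running, its highest and lowest values both being Run libraries. Hnrnpdl had 21.2, 88.3 and 34.7 without running and 31.7, 9.07 and 111.7 with running, so both extremes were again Run libraries. Hnrnpd (chromosome 5, 99955935 to 99978938), known as AUF1 for its role in the decay of AU-rich messages, was the member with separate groups. It was listed at 0 and had 4.54 and 5.40 FPKM without running, and had 7.67, 15.7 and 12.5 with running, so that each Run library lay above each NR library. Its log2 difference was 1.93 ± 1.28 (SE; limma unadjusted p = 0.175, adjusted p = 0.978), and 1.07 without NR replicate 1, the library listed at 0. Hnrnpd was singled out after its values were seen. Its mean level ranked 29 among the 31 members. Summed, the 7 genes had 282, 654 and 349.8 FPKM without running and 538, 516 and 1004 with running.

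The F/H hnRNPs bind runs of guanines. Hnrnph1 was the steadiest, at 83.8, 81.5 and 34.1 FPKM without running and 30.1, 83.9 and 56.9 with running, with means of 66.5 ± 28.1 and 57.0 ± 26.9 (SD, n = 3 each). Hnrnph2, its X-linked paralog, was listed at 0 and had 77.3 and 28.5 without running, and had 0.0682, 48.4 and 70.9 with running. It was at or near 0 in replicate 1 of each group. Hnrnph3 had 77.7, 12.5 and 22.5 FPKM without running and 108 in Run replicate 1, and was listed at 0 in Run replicates 2 and 3. Its log2 difference of -2.61 ± 2.09 (SE) was the most negative of all members, while its highest value was a Run library. Without that library the difference was -4.87 ± 1.42 (SE, limma unadjusted p = 0.0155, adjusted p = 0.568). Both Run values left in that fit were listed at 0, and the fit was singled out from those that left out 1 library. In it 352 of 6155 tested genes had an unadjusted p under 0.05, so this p-value is no support for a lower level with running. Hnrnpf (chromosome 6, 117900324 to 117925622) had 0.0471, 115 and 86.1 without running and 114, 123 and 84.7 with running. The 5 libraries other than NR replicate 1 lay close together, and the log2 difference of 2.28 ± 1.79 (SE; limma adjusted p = 0.978) became 0.09 without NR replicate 1. The 4 genes summed to 162, 286 and 171 FPKM without running and 252, 255 and 213 with running.

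Reads of a gene and of near-identical copies may not be separable. In the GENCODE M21 transcripts, 16 of the 31 members had at least 1 other gene whose transcript matched theirs over 300 bases or more at 90% identity or more, mostly processed pseudogenes. Hnrnpa3 had 37 such genes, Hnrnpa1 14, Hnrnpf 7 and Srsf3 5. The copies of Hnrnpf summed to 0.0258, 57.0 and 56.6 FPKM without running and 84.0, 79.2 and 68.9 with running, low in the same library as Hnrnpf itself. They made up 39.8% of the FPKM of gene and copies together. For Srsf3 the share was 9.26%, for Hnrnpa3 7.22%, for Hnrnpk 6.39% and for Hnrnpa1 5.16%, and at most 2.17% for the other 9 members whose copies are in the table. The Srsf3 share leaves out the dropped symbol Srsf3-ps, which had no match in the annotation. Srsf3-ps had 5.83, 5.32 and 3.49 FPKM without running and 2.01, 8.15 and 0.122 with running, lowest and highest in the same libraries as Srsf3. The matching genes of Hnrnpm (March2) and Hnrnpul2 (AC129217.1) are protein-coding genes that overlap these members, and have no values under these names. Adding the copies gave Hnrnpf a log2 difference of 2.62 ± 1.90 (SE; limma adjusted p = 0.978) and left the members with positive differences at 13 of 29. How reads were divided between gene and copies is not stated by the labels, so these levels are uncertain to that extent. In addition, 16 members, Hnrnpm and Hnrnpul2 among them, overlap another annotated gene, and whether the counting used the strand is not given either.

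**Figure D4:**
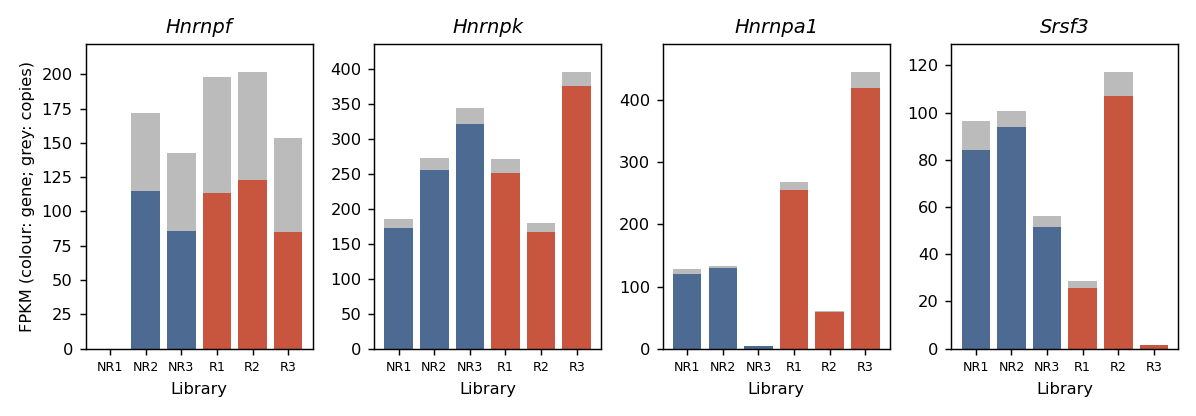
FPKM of Hnrnpf, Hnrnpk, Hnrnpa1 and Srsf3 in each library (NR in blue, Run in red) with the summed FPKM of their near-identical copies stacked on top in grey. Srsf3-ps is not part of the grey bars. The copies of Hnrnpf follow the gene, near 0 in NR replicate 1 and between 56.6 and 84.0 FPKM elsewhere.

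Of hnRNPs C, K, M and R, Hnrnpk (chromosome 13, 58391142 to 58403343) had the highest mean of all 31 members. It encodes a KH-domain protein that binds cytosine-rich RNA. Its level was 173, 256 and 321 FPKM without running and 251, 167 and 375 with running, with means of 250 ± 74.3 and 264 ± 105 (SD, n = 3 each). The groups covered each other almost completely, and the log2 difference was 0.05 ± 0.48 (SE; limma adjusted p = 0.994). Hnrnpc, whose protein packages nascent RNA and binds uridine tracts, had 257, 149 and 88.5 FPKM without running and 88.7, 79.0 and 114 with running. Its highest values were NR replicates 1 and 2, and the log2 difference was -0.69 ± 0.58 (SE; limma unadjusted p = 0.276, adjusted p = 0.978). Hnrnpm had 0.0127, 53.9 and 49.3 without running, and had 53.2 and 5.07 in Run replicates 1 and 2 and was listed at 0 in Run replicate 3. Hnrnpr, whose protein accompanies axonal messages, had 27.8, 16.4 and 72.0 without running and 0.229, 51.9 and 159 with running. Both of its extremes were Run libraries.

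The L and U hnRNPs were lower. Hnrnpl, which recognises CA repeats, had 0.0741, 14.3 and 6.23 FPKM without running and 31.9, 34.6 and 1.64 with running. Its paralog Hnrnpll had 6.44 and 30.1 in NR replicates 1 and 3 and 12.3 in Run replicate 2, and was listed at 0 in the other 3 libraries. The pair therefore had no common order across libraries. Hnrnpu, also known as scaffold attachment factor A, was among the evenest members, at 16.4, 23.3 and 25.8 FPKM without running and 22.4, 34.3 and 13.3 with running. Hnrnpul1 had 16.9, 0.550 and 30.4 without running and 19.1, 29.4 and 3.12 with running. Hnrnpul2, the member with the smallest unadjusted p, had 2.33, 0.0109 and 0.0293 without running and 6.83, 5.64 and 0.510 with running. Run replicate 3 lay below NR replicate 1, so its groups overlapped, and the log2 difference was 1.5 ± 0.85 (SE; limma unadjusted p = 0.121, adjusted p = 0.978). Without Run replicate 3 it was 2.25 ± 0.85 (SE, limma unadjusted p = 0.0402, adjusted p = 0.883). Run replicate 3 was the only Run library below an NR library, so leaving it out had to enlarge the difference. In that fit 323 of 6155 tested genes had an unadjusted p under 0.05, so this p-value is no support for a higher level with running.

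Among SR proteins with 1 RNA recognition motif, Srsf7 (chromosome 17, 80200080 to 80207307) and Srsf3 (chromosome 17, 29032628 to 29043373) act in splicing and in the export of messages. Srsf7 had 131, 114 and 29.2 FPKM without running and 297, 75.9 and 297 with running, with means of 91.4 ± 54.5 and 223 ± 128 (SD, n = 3 each). As with Hnrnpa1, Run replicates 1 and 3 were the highest and NR replicate 3 the lowest, and Run replicate 2 lay below 2 NR libraries. The log2 difference was 1.30 ± 0.85 (SE; limma unadjusted p = 0.170, adjusted p = 0.978). Srsf3 had 84.3, 94.0 and 51.4 FPKM without running and 25.8, 107 and 1.37 with running. Run replicate 3, the highest library for Srsf7, was the lowest for Srsf3, and the log2 difference was -1.98 ± 1.42 (SE; limma unadjusted p = 0.206, adjusted p = 0.978). Srsf2, which activates exons through splicing enhancers, had 4.73, 5.56 and 33.3 without running and 0.0427, 28.5 and 38.2 with running, so its lowest and highest values were both Run libraries.

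Of the SR proteins with 2 RNA recognition motifs, Srsf5 (chromosome 12, 80945504 to 80950507) was the most abundant SR gene. It had 181, 1.94 and 262 FPKM without running and 331, 29.3 and 287 with running, with means of 148 ± 133 and 216 ± 163 (SD, n = 3 each). Replicate 2 was the lowest library of each group, and the log2 difference was 1.45 ± 1.86 (SE; limma unadjusted p = 0.460, adjusted p = 0.978), or -0.62 without NR replicate 2. Srsf4, a paralog of Srsf5 and Srsf6, had 41.7, 32.2 and 0.0354 without running and 0.214, 0 and 99.7 with running, its single highest value being Run replicate 3. Srsf6 was listed at 0 in NR replicate 1 and Run replicate 3, with 35.5 and 20.9 in the remaining NR libraries and 8.81 and 20.03 in the remaining Run libraries. The 3 paralogs thus peaked in different libraries. Srsf1, the archetype of the family, had 3.65, 5.59 and 62.8 without running and 2.30, 11.5 and 21.8 with running. Srsf9 was not tested, with 48.7 and 26.1 in NR replicates 2 and 3, 0.368 in Run replicate 1 and 0 in the other 3 libraries.

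The SR-like members included Srsf10, whose protein represses splicing when it loses its phosphates. It had 69.1, 32.6 and 30.8 FPKM without running and 74.7 and 98.9 in Run replicates 1 and 2, and was listed at 0 in Run replicate 3. Srsf11 had 11.2, 59.1 and 24.9 without running and 25.3 and 32.6 in the same Run libraries, and was also listed at 0 in Run replicate 3. Srsf12, the paralog of Srsf10, was listed at 0 in all 6 libraries.

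Spread across the 6 libraries, taken without regard to group, was wide for many members. Over the 13 members at FPKM 1 or more in every library, the highest library exceeded the lowest by a median of 10.2-fold, from 2.25-fold for Hnrnpk to 170-fold for Srsf5. Over all 1751 such genes the median was 4.06-fold, with a middle 50% of 2.65-fold to 7.54-fold. These 2 sets were not matched for level: 7 of the 13 members and 767 of the 1751 genes had a mean of 10 to 100 FPKM. The evenest members were Hnrnpk, Hnrnpu (2.59-fold), Hnrnpa2b1 (2.72-fold), Hnrnph1 (2.79-fold) and Hnrnpc (3.25-fold). Among tested genes with a mean of 10 to 100 FPKM, the residual SD of log2(FPKM + 1) had a median of 2.23 for 20 members and 2.45 for all 3635 genes. At 100 FPKM or more it was 0.86 for 6 members and 0.76 for 693 genes. Of the 29 tested members, 8 had their highest value in Run replicate 2, 8 in Run replicate 3, 5 in NR replicate 2, 4 in Run replicate 1, 3 in NR replicate 3 and 1 in NR replicate 1. Of all tested genes 13.2% were highest in Run replicate 2, 20.9% in Run replicate 3, 12.8% in NR replicate 2, 20.6% in Run replicate 1, 15.3% in NR replicate 3 and 17.2% in NR replicate 1.

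The partners of these proteins were described from lists of other splicing genes. No gene of these 8 lists passed, the smallest adjusted p being 0.406. The counts of positive differences below stand beside 48.9% of all tested genes, whose median was -0.03. The Sm proteins, which form the core of the spliceosomal snRNPs, were well covered, with 6 of 8 at FPKM 1 or more in every library, and 2 of 8 had positive differences (median -0.29). Snrpn, the neuronal Sm gene, had 107, 210.3 and 171 FPKM without running and 314, 201 and 233 with running. Snrpb, which it resembles, had 105, 276 and 94.9 without running and 48.0, 93.1 and 66.7 with running, and was higher in each NR library than in each Run library. Of 17 tested U1 and U2 snRNP and U2AF genes 11 were positive (median 0.74). Sf3a3, a U2 component, had 0.0166, 16.5 and 0.0211 without running and 80.7, 77.4 and 61.3 with running, groups that do not overlap (limma unadjusted p = 0.0126, adjusted p = 0.525), and Sf3a2 had 0, 9.87 and 1.91 without running and 12.6, 18.4 and 22.4 with running. Of 6 tested U5 and tri-snRNP genes 2 were positive (median -0.25). Prpf8, at the heart of the spliceosome, had 9.32, 0 and 14.3 without running and 0.0203, 0 and 7.02 with running, and Prpf31 had 0, 62.1 and 28.2 without running and 0, 48.8 and 0 with running.

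SR proteins depend on kinases that phosphorylate them and on importins that carry them into the nucleus. Of 7 tested genes of this list 6 were positive, with a median of 0.79. The summed FPKM of all 13 genes of the list went the other way, with a Run over NR ratio of 0.965. Srpk2, a cytoplasmic SR kinase, had 2.86, 2.998 and 15.1 FPKM without running and 54.2, 29.2 and 67.6 with running, groups that do not overlap (log2 difference 2.95 ± 1.09 SE, limma unadjusted p = 0.0308, adjusted p = 0.895). Tnpo3, the importin of SR proteins, had 0.000482, 22.6 and 0 without running and 10.1, 17.6 and 17.3 with running. Clk1, a nuclear SR kinase and the most abundant of the list, had 84.0, 174 and 46.7 without running and 73.1, 64.0 and 59.9 with running. Of 11 tested SR-related genes 4 were positive (median -0.45). In that list Pnisr was listed at 0 in NR replicates 1 and 2, had 10.2 in NR replicate 3, and had 12.4, 21.7 and 19.2 with running, and Scaf1 had 4.98, 9.60 and 13.0 without running and 0.314, 8.07 and 0.274 with running.

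Of 19 tested hnRNP relatives with other names 14 were positive (median 0.28), and 2 had an unadjusted p under 0.05. Fubp1, which binds single-stranded nucleic acid, had 3.37, 0.422 and 0.0475 FPKM without running and 27.4, 127 and 30.8 with running, groups that do not overlap (log2 difference 4.71 ± 1.31 SE, limma unadjusted p = 0.00885, adjusted p = 0.406). Tardbp, which encodes the splicing repressor TDP-43, had 0, 2.26 and 0 without running and 3.78, 14.5 and 35.4 with running, also without overlap (log2 difference 3.23 ± 1.18 SE, limma unadjusted p = 0.0294, adjusted p = 0.870). Of 11 tested neuronal splicing regulators 7 were positive (median 0.84). Celf4 had 0.0176, 20.2 and 0 without running and 150.1, 43.1 and 8.86 with running, and Rbfox1 had 27.2, 33.5 and 17.1 without running and 276, 28.8 and 53.3 with running, so that Run replicate 1 held the highest value of both. That library also had the highest summed level of the general neuron markers (1021 FPKM), whose part in these values was not tested. Of 4 tested nonsense-mediated decay factors 2 were positive (median -0.16). Smg1 had 1.81, 14.8 and 0.705 without running and 0.0117, 0.000511 and 1.22 with running, and Upf3a had 0, 1.65 and 0 without running and 18.2, 6.83 and 0 with running. Over the 8 lists together 4 of 83 tested genes (4.82%) had an unadjusted p under 0.05, namely Sf3a3, Srpk2, Fubp1 and Tardbp, a share near the 4.94% of all tested genes.

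**Figure D5:**
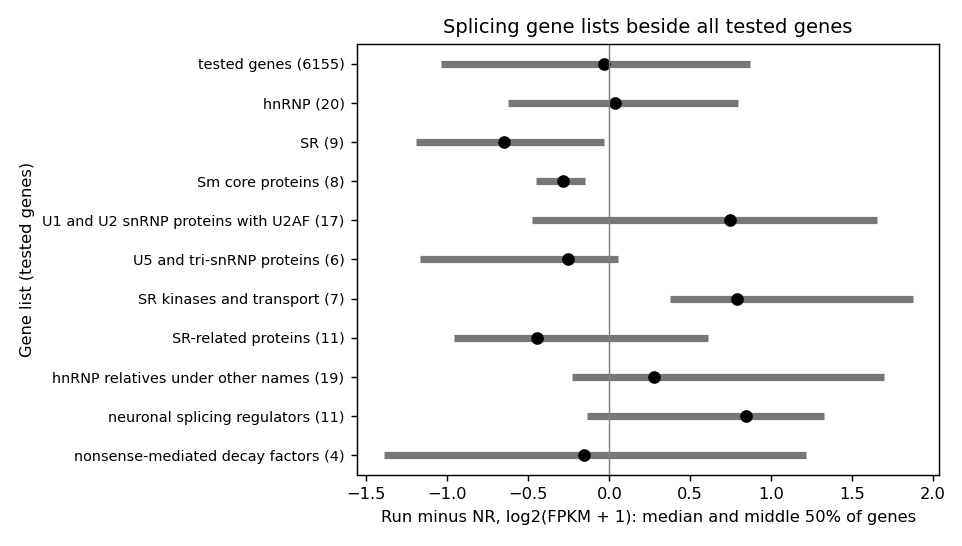
Median (point) and middle 50% (bar) of the Run minus NR differences on the log2(FPKM + 1) scale for all 6155 tested genes, the hnRNP and SR genes and 8 other splicing lists, with the number of tested genes in brackets. The medians lie between -0.65 (SR) and 0.84 (neuronal splicing regulators), and the bars of most lists reach across 0.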

How the data were processed

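RNA of sorted cells labelled as tdTomato-positive dentate gyrus neurons was measured in 6 Smart-seq2 libraries, 3 NR and 3 Run, grouped and numbered by their titles, whose ending "-2" the table's column names lack. The authors deposited FPKM values in 1 table. Genome build mm10 and the tools Trimmomatic 0.39, STAR 2.7.5c and StringTie 2.1.7 are named per the submitters' processing notes; their roles and the annotation are not given. FPKM holds no counts, so depth is unknown and no counting intervals are given. PCR reads without molecular identifiers are not independent molecules. The FPKM values were tested as log2(FPKM + 1) with limma 3.58.1 in R 4.3.3 (mean-variance trend, 2-sided, Benjamini-Hochberg), for the 6155 genes that reached FPKM 1 in 3 or more libraries; the script was tested on simulated data. Coordinates and transcript classes come from GENCODE M21 (same build; 96.2% of symbols matched, all 31 members). Near-identical transcripts were searched with BLAST+ 2.17.0, promoter letters come from RefSeq (GRCm38.p6). Python 3.11.15 with pandas 2.3.3, numpy 2.4.6 and matplotlib 3.10.9 made tables and plots. Members, lists and tests were chosen with earlier results of these data known. Every member is described; full statistics are given for the 5 most abundant and for any at an unadjusted p under 0.05 (none), and others printed were added after values were seen. Of each other splicing list the 2 tested genes with the smallest p are named, and Clk1 and the marker examples were added. Mean ± SD is given for genes at FPKM 1 or more in all 6 libraries.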

Additional observations from a re-analysis of the deposited data

How the results depend on the processing

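Over the alternatives run, no member reached an adjusted p under 0.05, the lowest being 0.568 (Hnrnph3 without Run replicate 1). With log2(FPKM + 0.1), log2(FPKM + 10), scaling every library to the same sum, quantile normalization, limma without the trend and no filter on low values, the count of members at an unadjusted p under 0.05 remained 0. When only genes at FPKM 1 or more in all 6 libraries were tested (1751 genes, 13 members), 82 genes had an unadjusted p under 0.05 in place of 304, 7 members were positive in place of 13, and 0 members in place of 1 had groups that do not overlap, since fewer genes were tested. Leaving out each library in turn gave 302 to 365 genes and 0 to 1 members at an unadjusted p under 0.05, 9 to 18 positive members, a median member difference of -0.40 to 0.23, 1 to 5 of 29 members without overlap (3.45% to 17.2%, where 16.4% to 20.4% of all tested genes had none), and ratios of summed FPKM of 1.04 to 1.39 for hnRNP and 1.15 to 1.51 for SR genes. The 18 positive members came without Run replicate 1, the 9 without NR replicate 1. Hnrnpk reversed in some of these fits (-0.24 to 0.34), as did Srsf5 (-0.62 to 2.62); Hnrnpa1 had 0.56 to 2.85, Hnrnpa2b1 0.26 to 0.87 and Srsf7 0.62 to 1.95. The sign of the difference held under all alternatives in which the gene was tested for 12 of 29 members, 7 higher and 5 lower in Run. Limma without the trend, the changed filters and a block for replicate number leave the difference of a gene as it is. They could therefore not reverse a sign. The share of all tested genes whose sign held was not computed, so this count is no measure of a firm direction. Replicate numbers are shared between the groups. The deviations of same-numbered libraries correlated with r = 0.00 to 0.02 across genes, too low to pair them, although each of the 6 libraries correlated best with its own number. With the replicate block, 251 genes and 0 members had an unadjusted p under 0.05, and 0 genes an adjusted one. Adding near-identical copies was chosen after seeing the data. Depth is unknown, so it could not be weighed against values listed at 0.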
